A study of Homo sapiens with 12 samples.

Results

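MALAT1, NEAT1, NORAD, TUG1, GAS5, SNHG1, OIP5-AS1 and KCNQ1OT1 are long RNAs studied for what they do as RNA, not as templates for a large protein. Their peaks were chosen by 1 criterion, an overlap of at least 1 bp with the RefSeq span of the gene on either strand. Of 34365 peaks in the control list 42 met it, and of 28047 peaks in the NAT10 knockdown list 44, so 86 of 62412 peaks are described here. The samples were RBE cells, an established human intrahepatic cholangiocarcinoma line grown in DMEM with serum. They carried either a control hairpin (sh-NC) or a hairpin against NAT10 (sh-NAT10), delivered by lentivirus at a multiplicity of infection of 20 with polybrene (10 µg/mL) and followed by puromycin selection (2 µg/mL) and expansion of resistant colonies. The labels' protocol names only the virus against NAT10 and does not say whether a line came from 1 clone. Total RNA was cut to 100 to 200 bp, and fragments bound by an antibody against N4-acetylcytidine (ac4C) were sequenced beside a reserved portion of the fragments as input, with 3 libraries in each of the 4 groups of hairpin and fraction. The labels also give polyA RNA as the molecule, beside a protocol that starts from total RNA.

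NAT10 is the acetyltransferase that places ac4C on ribosomal RNA, transfer RNA and, as reported, other RNAs. The long RNAs described here differ in how their ends are made and in where they stay. MALAT1 gathers in nuclear speckles and ends in a triple helix instead of a poly(A) tail, left behind when the tRNA-like mascRNA is cut off. NEAT1 builds paraspeckles, for which its long isoform is required, and that isoform ends in a triple helix too. NORAD is a cytoplasmic RNA that binds PUM2, TUG1 and OIP5-AS1 are spliced RNAs conserved in mammals, and GAS5 and SNHG1 are host transcripts whose introns release small nucleolar RNAs. KCNQ1OT1 is the unspliced antisense RNA of the imprinted KCNQ1 domain, made from the paternal allele.

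The values analysed are 1 list of peaks per arm, in which replicates are not told apart. No spread between replicates can be measured, no test between arms was possible, and the depth behind the peaks is unknown. A difference in peak number can therefore reflect acetylation, the amount of the RNA or the depth of the libraries, which cannot be told apart here. Each peak carries a deposited score of unstated scale, used only within its list. Each share has a 95% interval by Wilson's method, which treats peaks as independent and covers no error but that of counting. Of 7 biliary markers, 6 had a peak in both lists, among them KRT7 with 11 control and 10 knockdown peaks and KRT19 with 5 and 4, and EPCAM had none in either list.

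Counted on both strands, MALAT1 carried most of the peaks in both arms. The control list had 26 peaks on MALAT1 and the knockdown list 29, which makes 61.9% of the control and 65.9% of the knockdown peaks on the 8 genes. No other of the 3517 RefSeq lncRNA genes with a peak had as many in either list. On the strand of the gene alone, however, MALAT1 had 13 of 27 control and 13 of 28 knockdown peaks. By the share of the span covered it ranked 1825 in the control and 1132 in the knockdown list among these lncRNA genes. NEAT1 followed with 4 control and 9 knockdown peaks, TUG1 with 8 and 1, OIP5-AS1 with 2 and 1, NORAD with 1 and 2, and KCNQ1OT1 with 1 in both. SNHG1 had a peak in the knockdown list only and GAS5 had none in either list. None of the 6 genes with a control peak lacked a knockdown peak. For comparison, control peaks fell on 16.7% of all lncRNA genes and knockdown peaks on 11.3%, and on 47.1% and 42% of protein-coding genes. No knockdown peak was found for 47.2% of the lncRNA genes and 26.3% of the protein-coding genes that had a control peak. In the other direction the shares were 22.2% and 17.4%. Most of the lncRNA genes with a peak had none that overlaps them alone. The lncRNA shares thus largely count peaks that also overlap other genes. RefSeq gives 7 of the 8 genes as lncRNA and TUG1 as protein-coding, since some of its transcripts are given a coding sequence.

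**Figure D1:**
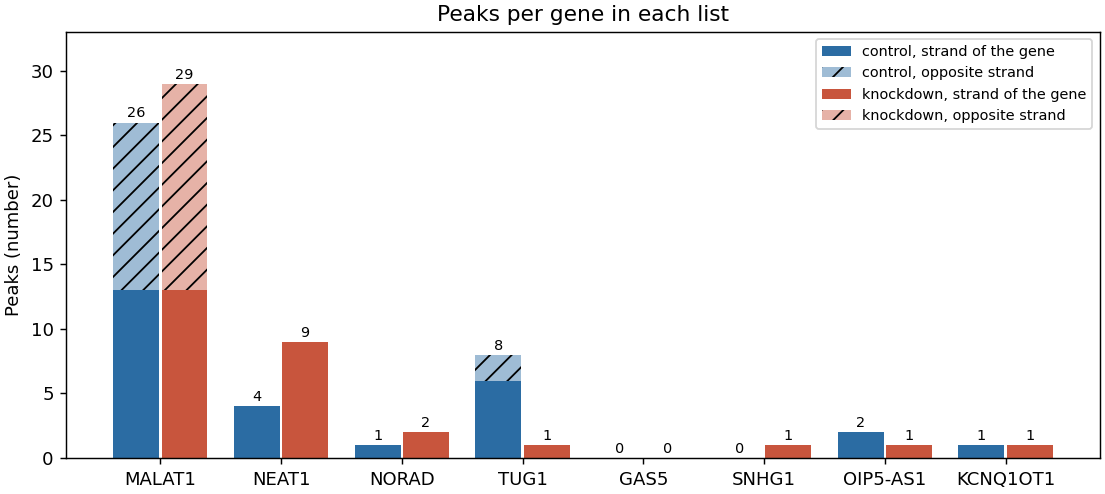
Number of peaks (y axis) on each of the 8 genes (x axis) in the control list (blue) and the knockdown list (red), with hatched parts for peaks on the strand opposite to the gene. MALAT1 stands far above the others with 26 and 29 peaks, NEAT1 has more knockdown peaks (9 against 4) and TUG1 more control peaks (8 against 1).

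MALAT1 lies on the plus strand of chromosome 11 from 65497738 to 65506516 (hg38, 8779 bp). RefSeq gives it 2 start sites, and the windows around both are shown because no peak reached either of them. Each window is chr11:65497488-65497787 or chr11:65498795-65499094 on the plus strand of GRCh38.p14, credited to RefSeq, with the first 50 transcribed bases in capitals and the 250 bases before them in lower case.
MALAT1 first start: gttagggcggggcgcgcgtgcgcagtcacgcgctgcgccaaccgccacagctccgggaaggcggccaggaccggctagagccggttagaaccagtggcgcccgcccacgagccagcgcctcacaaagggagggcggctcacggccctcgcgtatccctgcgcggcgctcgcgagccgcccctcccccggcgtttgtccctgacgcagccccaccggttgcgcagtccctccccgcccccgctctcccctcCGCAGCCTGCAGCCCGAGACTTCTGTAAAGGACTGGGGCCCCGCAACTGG
MALAT1 second start: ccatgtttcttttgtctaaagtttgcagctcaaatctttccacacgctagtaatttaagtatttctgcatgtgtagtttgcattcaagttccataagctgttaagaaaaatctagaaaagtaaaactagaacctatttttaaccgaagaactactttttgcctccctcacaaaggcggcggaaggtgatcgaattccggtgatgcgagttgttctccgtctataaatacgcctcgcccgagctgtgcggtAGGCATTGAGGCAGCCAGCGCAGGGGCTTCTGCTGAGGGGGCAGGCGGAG
The first window holds 73.7% G and C and the second 46.0%, against a median of 58.7% over 35116 windows of the table. The windows of NORAD, TUG1, GAS5, SNHG1 and OIP5-AS1 also held 0 peaks of either list. How many windows of all genes hold a peak was not counted, so these zeros have no background. For NEAT1 and KCNQ1OT1 no window was available, though a knockdown peak on NEAT1 began at position 2 of its span.

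Both arms marked the same part of MALAT1 and left the same ends bare. Counted from the first base of the span, the outermost peaks ran from position 1875 to position 8327 in the control list and between the same positions in the knockdown list. The first 1874 bp and the last 452 bp had 0 peaks in both, and the first peak began 567 bp after the second start site. The mascRNA, 58 bp from position 8380, lay 52 bp beyond the last peak of either list. Between these limits the peaks were spread widely. The midpoints of 16 of 26 control and 18 of 29 knockdown peaks lay nearer the 3′ end than the 5′ end of the span.

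**Figure D2:**
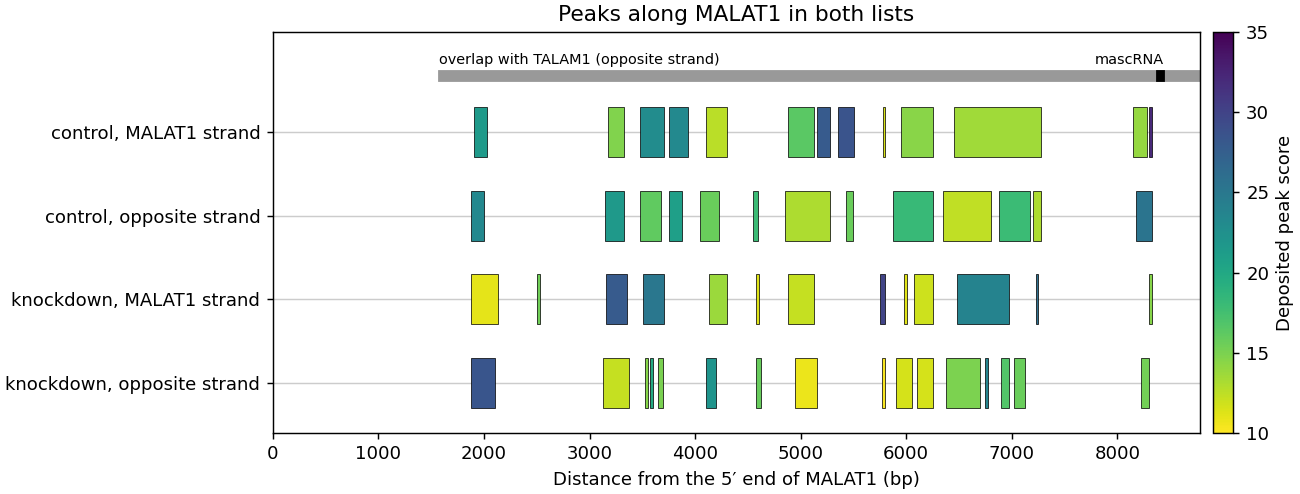
Peaks along MALAT1, by distance from its 5′ end in bp (x axis), in 4 tracks for list and strand, with colour giving the deposited score. The grey bar marks the part that overlaps TALAM1 and the black mark the mascRNA. In all 4 tracks the peaks lie between positions 1875 and 8327, and the stretch from 5150 to 5752 holds control peaks but no knockdown peak.

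Most MALAT1 peaks had a counterpart in the other arm, but the control peaks covered more of the RNA. A knockdown peak overlapped 19 of 26 control peaks on the same strand (73.1%, interval 53.9 to 86.3), and a control peak overlapped 26 of 29 knockdown peaks (89.7%, interval 73.6 to 96.4). When 50% of both peaks had to overlap, 15 of 26 and 15 of 29 had a counterpart. Over the whole lists, 54.5% of control peaks and 44.4% of knockdown peaks had no counterpart, and of peaks no wider than 1000 bp, as all MALAT1 peaks are, 57.1% and 49%. At an overlap of 1 bp, the MALAT1 intervals with both strands pooled lie above the list-wide shares that follow from these values. Most MALAT1 peaks face a peak on the other strand, so pooling counts sites more than once. On the MALAT1 strand alone, 9 of 13 control (interval 42.4 to 87.3) and 11 of 13 knockdown peaks (57.8 to 95.7) had a counterpart. The control interval then includes the list-wide control shares, and the knockdown interval lies above those of its list. Peaks packed densely on a gene overlap more easily, and the list-wide shares take no account of that density. No conclusion is therefore drawn from these contrasts. Control peaks on MALAT1 had a median width of 162.5 bp (range 25 to 825) and knockdown peaks of 100 bp (range 25 to 500). On the MALAT1 strand, 13 peaks in each list covered 2700 bp in the control arm and 1925 bp in the knockdown arm, with 1675 bp in common. Of the covered bases 62.0% of those in the control list and 87.0% of those in the knockdown list were thus common to both.

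The difference in covered length was plain at the widest peaks. On the MALAT1 strand the control list had a single peak of 825 bp from 6453 to 7277, with a score of 13.61. In the knockdown list the same stretch held a peak of 500 bp from 6478 to 6977, with a score of 23.79, and another of 25 bp from 7228 to 7252, with a score of 25.93. On the opposite strand the control peak of 375 bp from 5875 to 6249 stood against knockdown peaks of 150 bp from 5900 to 6049 and of 150 bp from 6100 to 6249. The number of peaks on that strand was higher in the knockdown list, 16 against 13, while the covered length was lower, 1850 bp against 2700 bp. Peak number and covered length thus pointed in opposite directions.

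A pair of stretches carried control peaks of high score and no knockdown peak on either strand. At positions 3753 to 3927 a control peak on the MALAT1 strand had a score of 23.21, and its opposite-strand partner at 3750 to 3874 had 20.97. At positions 5153 to 5277 and 5353 to 5502 the control list had peaks on the MALAT1 strand with scores of 27.93 and 28.54, and on the opposite strand a peak of 75 bp from 5425 to 5499 with 15.67. In the knockdown list 603 bp from 5150 to 5752 had 0 peaks, and so had 397 bp from 3703 to 4099. In the other direction, a peak 25 bp wide at 2503 to 2527 (score 15.38) stood in the knockdown list alone, inside a control stretch of 1122 bp without a peak. These stretches were chosen after their values were seen.

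Among MALAT1 peaks with a score of 20 or more, 6 of 10 control peaks and 8 of 8 knockdown peaks had a counterpart of any score. Over the lists, 36% of control and 28.4% of knockdown peaks of that score had none. The highest control score on MALAT1 was 32.11, at 8303 to 8327 (25 bp), and the knockdown list had a peak at exactly these positions with 14.59. The highest knockdown score was 29.96, at 5753 to 5802 (50 bp), and the control peak inside it, of 25 bp, had 11.44. Ranked within their own lists these scores lay at percentiles 95.5 and 68.7 for the first site and 37.1 and 93.1 for the second, in the order control and knockdown. The highest MALAT1 score of each list thus stood at a site where the other list had a score under 20. At 2 sites both lists had a score of 20 or more, 1875 to 1999 on the opposite strand (control 23.36, knockdown 28.44) and 3478 to 3702 on the MALAT1 strand (22.94 and 25.12).

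Many MALAT1 peaks lay on the strand opposite to the gene. Of the 26 control peaks 13 lay on the opposite strand, and of the 29 knockdown peaks 16. Among all peaks that overlap exactly 1 gene with a known strand, 2.73% of control and 2.62% of knockdown peaks lay opposite to it, and of those no wider than 1000 bp 1.97% and 2.15%. These shares leave out loci with an antisense gene and hold no MALAT1 peak, so they are no like-for-like background. Among the other genes described here, TUG1 had 2 of 8 control peaks on the opposite strand. MALAT1 is overlapped on the opposite strand by the antisense RNA TALAM1 (chromosome 11, 65499312 to 65507432), which covers 82.1% of the MALAT1 span. All 55 MALAT1 peaks of both strands lay inside the TALAM1 span, the first of them beginning 300 bp after its boundary, so none of them overlaps MALAT1 alone. The sources used here do not say whether the libraries and the peak calling kept the strand, so signal of MALAT1 and TALAM1 cannot be told apart.

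The peaks of the 2 strands mirrored each other. In the control list 24 of 26 MALAT1 peaks (92.3%, interval 75.9 to 97.9) overlapped a peak of the same list on the other strand, and in the knockdown list 24 of 29 (82.8%, interval 65.5 to 92.4). Over the whole lists, 12.5% of control and 11.2% of knockdown peaks did so, and 11% and 9.75% of those no wider than 1000 bp. These list-wide shares also cover peaks at loci without an antisense gene, whereas every MALAT1 peak lies inside the TALAM1 span. They are therefore no like-for-like background either. Whether the mirroring reflects RNA from both strands was not tested. At the 5′ end, for example, the control peak at 1903 to 2027, with a score of 21.49, faced an opposite-strand peak at 1875 to 1999 with 23.36. The knockdown peaks there were 1878 to 2127 with 11.01 and, on the opposite strand, 1875 to 2099 with 28.44. Of the bases in a peak on any strand, 72.9% of those of the control list and 53.7% after knockdown were in a peak on both.

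NEAT1 had more peaks in the knockdown list, with all control sites still present. The gene lies 5′ of MALAT1 on the same chromosome and strand (65422798 to 65445540, 22743 bp). The control list had 4 peaks, at 1877 to 1901 (score 13.17), 2127 to 2351 (16.42), 14777 to 14951 (27.96) and 19352 to 19376 (10.41). Each overlapped a knockdown peak, and all lay on the NEAT1 strand. The first 2 sites lie in the part that both NEAT1 isoforms hold, and the last 2 in the part of the long isoform alone.

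The knockdown list added 5 NEAT1 peaks without a control counterpart. They stood at 2 to 126 (score 13.81), at the very 5′ end, at 4977 to 5076 (10.84), 5102 to 5126 (10.22) and 10902 to 10926 (10.58), and at 19277 to 19301 (10.87), next to a shared site. Of these scores 4 lay between 10 and 11, and 95.6% of all knockdown peaks had a score of at least 10. The 4 shared sites had knockdown scores of 10.37, 17.13, 15.30 and 13.28 in 5′ to 3′ order. NEAT1 had 450 bp under control peaks (1.98%) and 850 bp under knockdown peaks (3.74%), 425 bp of them in common. No peak reached MIR612, the microRNA gene at positions 21661 to 21760.

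Few genes gained as many peaks between the lists. Of 19128 genes with a peak in either list, 0.857% had at least 5 more knockdown than control peaks. Some of the added NEAT1 peaks lie next to each other or to a shared site, so they may be fewer separate sites. The 3280 other genes that had between 3 and 5 control peaks had a median of 3 in the knockdown list (quartiles 1 and 4), 24 genes had 9 as NEAT1 did and 24 had more. At a score of 20 or more, however, NEAT1 had 1 control peak and 0 knockdown peaks. The direction of the difference thus turns with the score, though a cut of 20 need not mean the same in both lists. Per kb of span, NEAT1 had 0.176 control and 0.396 knockdown peaks, against 2.96 and 3.30 for MALAT1. The lower density of NEAT1 held on the strand of the gene alone, where MALAT1 had 1.48 peaks per kb in both lists.

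TUG1 went the other way, with no site in common. The gene lies on the plus strand of chromosome 22 from 30969265 to 30979395 (10131 bp). On its own strand the control list had 6 peaks, at 2431 to 2580 (score 11.82), 3731 to 3905 (14.76), 3931 to 4230 (13.86), 5981 to 6005 (13.99), 7431 to 7455 (12.08) and 9481 to 9580 (12.39). On the opposite strand it had 2 peaks, each facing 1 of these, at 7426 to 7450 (12.63) and 9464 to 9563 (23.83). The only knockdown peak was 25 bp wide, at 2856 to 2880, with a score of 11.68. It lay 275 bp after the nearest control peak and 850 bp before the next.

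Control peaks covered 797 bp of TUG1 (7.87%) and the knockdown peak 25 bp (0.247%). A deficit of at least 7 knockdown peaks was seen on 1.87% of the 19128 genes with any peak. The 750 other genes that had between 7 and 9 control peaks had a median of 5 after knockdown (quartiles 2 and 8), 75 genes had 1 as TUG1 did and 73 had none. Only 1 of the 8 control peaks on TUG1 had a score of 20 or more, the opposite-strand peak at 9464 to 9563. Markers of other cell types differed between the lists in the same direction. Among 12 neuronal markers, control peaks were on 11 and knockdown peaks on 7, with 97 and 24 peaks in all and GRIN1 at 0 in both lists. Of 9 glial markers 5 and 1 did, with 32 peaks and 1 peak, and GFAP, ALDH1L1, MOG and MOBP had 0 in both. Their part in the TUG1 difference was not tested.

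**Figure D3:**
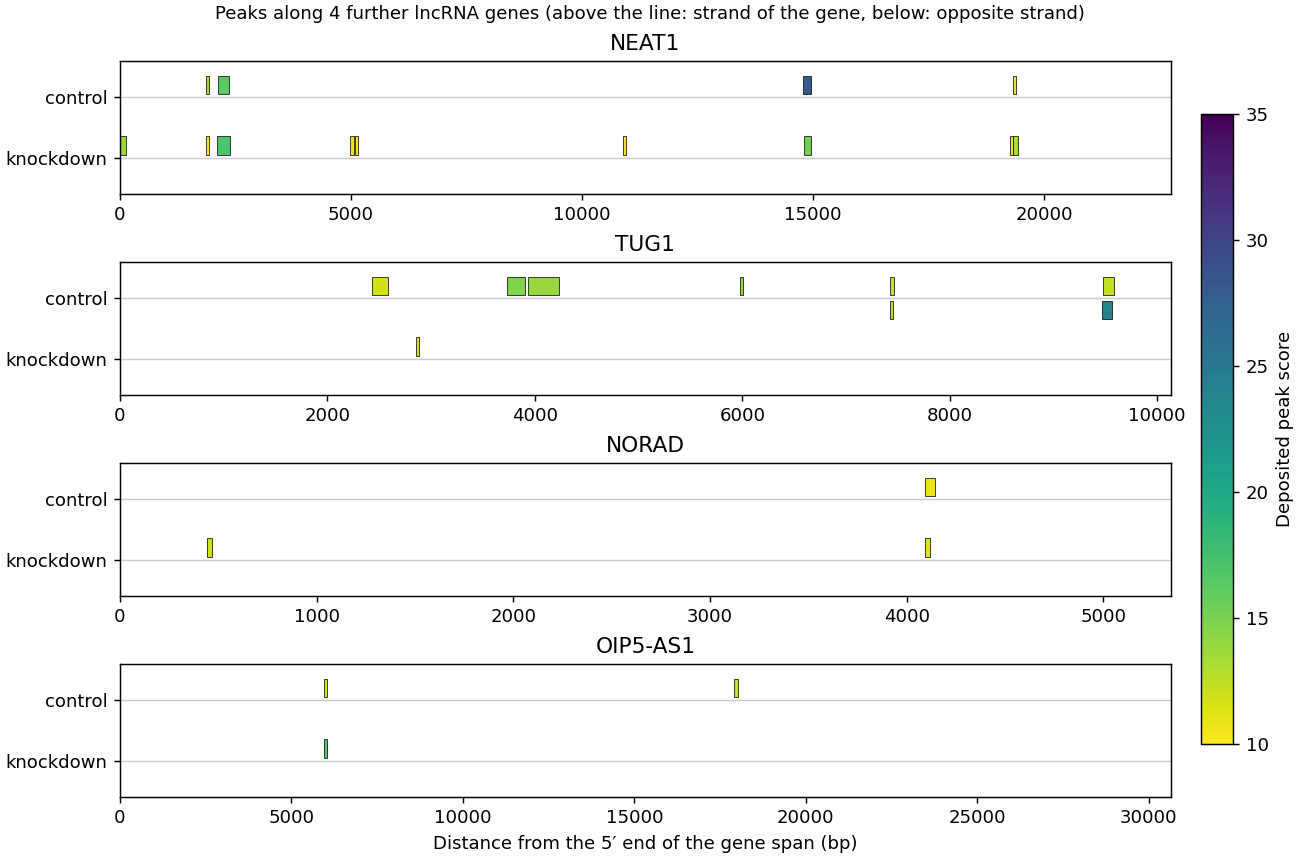
Peaks along NEAT1, TUG1, NORAD and OIP5-AS1 by distance from the 5′ end of each gene span in bp (x axis), control above and knockdown below, coloured by deposited score. Boxes above a line lie on the strand of the gene and boxes below it on the opposite strand, and the narrowest peaks are drawn wider than they are so that they can be seen. All 4 control sites of NEAT1 recur in the knockdown list, and none of the 8 TUG1 control peaks does.

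NORAD (chromosome 20, minus strand, 36045618 to 36050960, 5343 bp) had a single site that was present in both arms. The control peak ran from position 4094 to 4143 with a score of 10.73, and the knockdown peak from 4094 to 4118 with 11.17. A further knockdown peak stood near the 5′ end, at 444 to 468, with 11.90. All were 25 or 50 bp wide and had scores between 10 and 12. Of the peaks on chromosome 20, NORAD thus held 1 of 812 in control cells and 2 of 785 after knockdown.

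OIP5-AS1 (chromosome 15, plus strand, 41282697 to 41313338, 30642 bp) also kept 1 site. Its control peak at 5975 to 6024 (score 11.46) lay inside a knockdown peak at 5950 to 6049 (16.67). The other control peak, at 17907 to 18031 (11.64), had no counterpart. No peak lay where the gene overlaps OIP5 on the other strand.

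KCNQ1OT1 (chromosome 11, minus strand, 2608328 to 2699994, 91667 bp) had 1 peak per list at different sites, 31117 to 31241 in the control list (score 11.39) and 50967 to 50991 in the knockdown list (10.03). These lay 19725 bp apart. The whole span lies within KCNQ1, and both peaks were on the strand of KCNQ1OT1, opposite to KCNQ1. Per kb, KCNQ1OT1 had the lowest density of the genes with a peak, 0.0109 in both lists.

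The small nucleolar RNA host genes GAS5 and SNHG1 had almost none. GAS5 (chromosome 1, minus strand, 173863901 to 173869045) holds 11 annotated small nucleolar RNA genes, and neither list had a peak within its 5145 bp. The nearest peaks lay 1356 bp away in the control list and 9990 bp away in the knockdown list. SNHG1 (chromosome 11, minus strand, 62851978 to 62855885, 3908 bp) holds 9 such genes and had 1 peak, in the knockdown list, at positions 2284 to 2358. Its score of 32.38, at percentile 94.1 of its list, was the highest knockdown score on the 8 genes. The peak lay between SNORD30 and SNORD31, 60 bp from the first and 134 bp from the second, and overlapped neither.

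Peaks on the 8 genes were all under 1000 bp wide and, within each list, of higher than median score. The median score was 14.75 for the 42 control peaks, against 12.17 for the whole list, and 14.16 for the 44 knockdown peaks, against 12.37. A score of 20 or more was found for 12 control peaks (28.6%) and 9 knockdown peaks (20.5%), against 12.3% and 14.9% of the lists. MALAT1 set these values. Without it the medians were 12.51 and 11.68, with 2 and 1 peaks of 20 or more. Width here runs from the start to the end of a peak and counts any intron between them. None of the 86 peaks was wider than 825 bp, whereas 31.0% of control and 31.4% of knockdown peaks of the lists exceeded 1000 bp. Their median width was 137.5 bp in the control and 75 bp in the knockdown list. Among all peaks no wider than 1000 bp it was 100 bp in both lists.

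**Figure D4:**
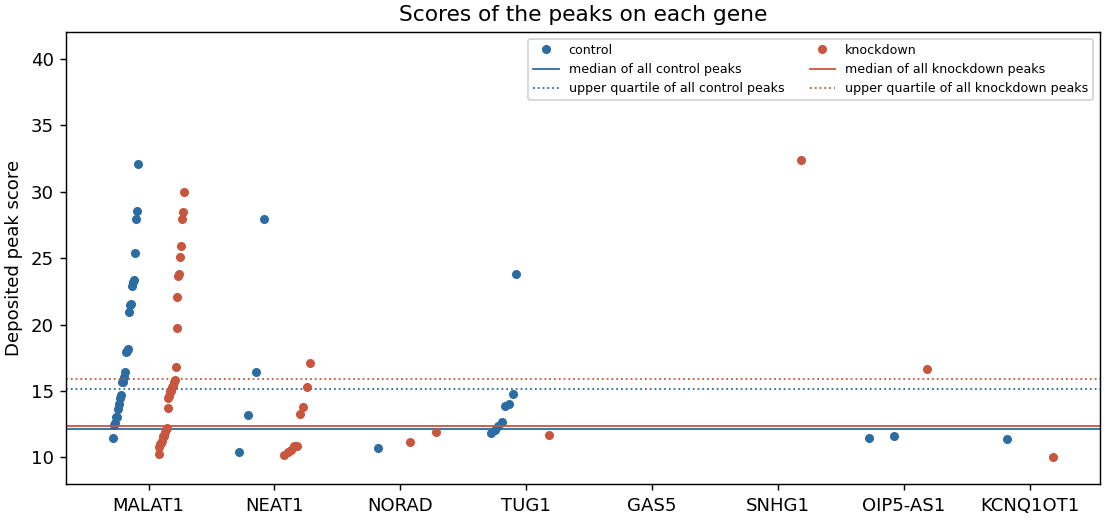
Deposited score (y axis) of each peak on the 8 genes (x axis), control in blue and knockdown in red, points sorted by score within a gene and list, with the median (solid line) and upper quartile (dotted line) of all peaks of each list. MALAT1 peaks reach 32.11 and 29.96, and most peaks on the other genes lie between 10 and 17.

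Sharing and strand over the 8 genes also rested on MALAT1. In all, 25 of 42 control peaks (59.5%, interval 44.5 to 73.0) and 32 of 44 knockdown peaks (72.7%, interval 58.2 to 83.7) had a counterpart. Without MALAT1 it was 6 of 16 (37.5%, interval 18.5 to 61.4) and 6 of 15 (40%, interval 19.8 to 64.3). Without MALAT1, 14 of 16 control and 15 of 15 knockdown peaks lay on the strand of the gene, and with it 27 of 42 and 28 of 44.

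The genes whose products work with these RNAs mostly had peaks in both arms. Of 14 genes for paraspeckle proteins, which assemble on NEAT1, all had a peak in both lists, 82 control and 89 knockdown peaks in all. TAF15, an RNA-binding protein, had 10 and 11, NONO, a core paraspeckle protein, had 7 and 10, EWSR1 had 7 and 8, and the chromatin remodeller SMARCA4 had 17 and 13. More knockdown peaks were found on 8 of these genes and fewer on 4. Over all genes with a peak, 29.1% had more and 44.7% fewer.

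Of 11 genes for nuclear speckle and triple helix partners of MALAT1, 10 had a peak in both lists, 85 control and 70 knockdown peaks in all. SRRM2 and SON, scaffold proteins of the speckle, had 24 and 18 and 14 and 9, the splicing coactivator SRRM1 had 9 and 8, and the splicing factor U2AF2 had 9 and 7. METTL16, a methyltransferase that binds the MALAT1 triple helix, had 0 and 1. Fewer knockdown peaks were found on 7 of the 11 and more on 4, against 44.7% and 29.1% of all genes with a peak.

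Of 7 NORAD partners 6 had a peak in both lists, with 31 and 30 peaks in all. PUM2, an RNA-binding repressor that NORAD binds, had 5 control and 7 knockdown peaks. PRPF19, a splicing factor, had 8 in both, TOP1, a topoisomerase, 8 and 5, KHDRBS1, which encodes the RNA-binding protein SAM68, 3 and 4, and CDC5L, a partner of PRPF19, 0 and 3. Of 8 genes in the KCNQ1OT1 domain and beside it 6 had a peak in both lists, CD81 with 4 and 6, NAP1L4 with 3 in both, SLC67A1 (SLC22A18) with 2 in both, and PHLDA2 and TSSC4 with 1 and 2 each. KCNQ1 counts here through the same peaks as KCNQ1OT1, and CDKN1C and ASCL2 had none.

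Of 38 other lncRNA and host genes, 20 had a control peak, 22 a knockdown peak and 12 neither, with 58 and 55 peaks in all. SNHG14, the host of the small nucleolar RNAs of the Prader-Willi region, had 20 control and 4 knockdown peaks, SNHG16 had 5 and 9, DLEU2 had 3 and 6, and the imprinted MEG3 had 6 and 2. Only 2 control and 0 knockdown peaks of SNHG14 overlapped no other annotated gene, so the rest cannot be assigned to it alone. For SNHG16 these numbers were 4 and 8, for DLEU2 0 and 2, and for MEG3 5 and 1. The neuronal and glial markers given with TUG1 differ in the same direction as SNHG14 and MEG3, and their part was not tested. A control peak without a knockdown peak was found on 4 of the 20 (20%, interval 8.07 to 41.6), namely CCDC26, SNHG17, EPB41L4A-AS1 and NUTM2A-AS1. Over all lncRNA genes it was the 47.2% given above, which largely counts peaks that also overlap other genes. The knockdown list had more peaks on 13 of the 38 genes and fewer on 7. Over all genes with a peak the shares were 29.1% and 44.7%, while the 38 include 12 without a peak. The host genes ZFAS1, SNHG6, SNHG8 and SNHG12 had no peak in either list, as GAS5 did not.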

How the data were processed

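The submitters' processing notes name hg38 as genome build, and Bowtie2 2.4.1 and fastp 0.20.1 as tools. How peaks were called, how inputs entered and how replicates were combined is not stated in the sources used here. For this series the authors deposited 1 list of peaks per arm, and each peak has a score whose scale is unstated. The name of 1 list marks it as control; the other was taken to be that of the knockdown. Peak starts were counted from 1. Widths and covered lengths were taken from the start to the end of each peak, with any intron between them included. Gene spans came from RefSeq (GRCh38.p14), and gene strands from its promoter table, except NEAT1 and KCNQ1OT1, whose textbook orientation was used. Exons were not used here, so positions are along the gene span. Counterparts overlapped by at least 1 bp on the same strand.

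All 8 genes are described. In each partner list up to 4 genes with the most peaks were named, ties included, and those in 1 list only where these were 5 or fewer; 1 gene this rule names is not reported here. The genes, lists and settings were chosen with earlier results of these data known. Marker lists were added later. Overlap procedures were tested on simulated data. Python 3.11.15, pandas 2.3.3, NumPy 2.4.6, SciPy 1.17.1, intervaltree 3.1.0 and matplotlib 3.10.9 were used.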

Additional observations from a re-analysis of the deposited data

How the results depend on the processing

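No paired analysis was possible because the lists do not separate the replicates, and for the same reason no replicate could be left out. With only scores of 20 or more, member peaks numbered 12 control and 9 knockdown, median scores were 23.60 and 25.93, covered shares 0.804% and 0.771% of the summed spans (2.65% and 2.01% with all scores), and shared peaks 16.7% and 22.2%. The difference of knockdown minus control peaks then turned from 3 to -2 for MALAT1 and from 5 to -1 for NEAT1. This cut was passed by 12.3% of all control and 14.9% of all knockdown peaks, and it need not mean the same in both lists. Of the partner lists, 71.4% of 7 lncRNA and host genes and 28.6% of 7 MALAT1 partners with a control peak then had no knockdown peak, in place of 20% and 0%. On the strand of the gene, peaks numbered 27 and 28. Peaks that overlap exactly 1 gene numbered 15 and 14, none of them on MALAT1. An overlap of 50% of both peaks left 45.5% of knockdown peaks shared. Without MALAT1, an alternative chosen after seeing the data, peaks numbered 16 and 15, the knockdown median width was 25 bp, shared peaks 37.5% and 40%, own-strand peaks 87.5% and 100%, covered shares 0.942% and 0.663%, and knockdown peaks in the first 10% of the span 26.7% in place of 9.09%. The limit of 1000 bp and an overlap of 50% with the gene span left the peak numbers as they were. TUG1 had fewer knockdown peaks under every alternative run on it. Depth is unknown, so a site without a peak may lie below detection.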

Other observations

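All 86 peaks on the 8 genes had start-to-end widths that are whole multiples of 25 bp. Over the lists, where such widths can include introns, 58.2% of control and 54.5% of knockdown peaks did. On MALAT1 the peaks of each strand began on a single 25 bp raster, with different rasters for the strands. All 13 control and 16 knockdown peaks on the opposite strand began a whole multiple of 25 bp above the lowest coordinate of the TALAM1 span, which is the 3′ end of that RNA, and none of the 13 peaks per list on the MALAT1 strand did.

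Among 17631 other lncRNA genes with a span of at least 1000 bp, those closest to MALAT1 in the share of the span covered by peaks in the 2 lists were PDCD6-AHRR, LOC102724262 and SCN1A-AS1. MALAT1 had 35.6% and 28.0% covered and PDCD6-AHRR 36.2% and 28.3%, the latter with 4 and 3 peaks in a span of 166640 bp. Closest to NEAT1 were LOC105375038, LOC101929314 and HMMR-AS1, the last with 1 control and 4 knockdown peaks covering 1.92% and 3.29%. Likeness was the sum of the absolute differences over both lists. It takes no account of the number or width of peaks, which differ between MALAT1 and PDCD6-AHRR. Covered length runs from the start to the end of each peak, so introns inside a wide peak count as covered.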
